A study of Homo sapiens with 72 samples.

Results

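The 35 miRNAs described here come from the 3p arm of their hairpins and carried heavy 3′ uridylation in unedited cells. They were selected from the 2388 miRNA names in the tail tables. A name had to end in 3p, to hold a mean of at least 10 reads, and to have a U-only 3′ tail on at least 15% of those reads, in wild-type DU145 and in wild-type IGROV1 alike. Of 220 3p miRNAs with enough reads in both lines, 42 reached that share, and 7 of these (let-7, miR-98, miR-324 and miR-652) were left out by name. The 174 other 3p miRNAs that had enough reads, stayed below 15% in 1 or both lines and belong to none of the left-out families serve as the comparison. Because the U share of wild-type DU145 and IGROV1 cells chose the members, U and unmodified shares in the mutants of these lines are given as a description with no test. The LIN28A-overexpressing DU145 libraries were not used by the choice. That line derives from DU145, however, so its wild-type U share is not independent of the choice.

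The study asked what the loss of the uridyltransferases TUT4 and TUT7 does to the tails and levels of miRNAs. DU145 is a prostate cancer cell line with LIN28A mRNA near 0, IGROV1 is an ovarian cancer cell line that expresses it, and LIN28A-OE DU145 carries a lentiviral LIN28A transgene with a CMV promoter. Each line was sequenced as wild type for TUT4 and TUT7 and as 2 TUT4-; TUT7- double mutants made with CRISPR, here mutant 1 and mutant 2, with 4 small RNA and 4 mRNA libraries per group from successive passages. The study calls each mutant an independent clone, and in some mutant groups the clone name in the labels rises by 1 from replicate to replicate. The LIN28A-OE DU145 mutants carry the clone names of the DU145 mutants, and parental DU145 cells were at far higher passage numbers than the mutants, so passage and genotype cannot be told apart there. In IGROV1, mutant 1 was at lower passage numbers than wild type, and mutant 2 met the wild-type range only at its last passage. Passage and genotype are largely tied in that line as well. The 36 small RNA libraries held 5707942 to 14067165 reads in the tail tables. KLK3, a marker of the prostate luminal cell, was at or near 0 in all groups, and the Müllerian marker PAX8 averaged 567 to 886 CPM (mRNA counts relative to the library total) in IGROV1 groups and at most 2.12 CPM elsewhere. The other ovarian markers did not set IGROV1 apart in this way: MUC16 averaged 2.26 CPM in wild-type IGROV1, 23.1 in wild-type DU145 and 63.5 in wild-type LIN28A-OE DU145, and WT1 averaged at most 1.03 CPM in any group. PTPRC, the pan-leukocyte marker, averaged at most 0.198 CPM.

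MicroRNAs are cut from hairpin precursors by DROSHA and DICER1, and either arm of the hairpin can be loaded into an Argonaute protein. Terminal nucleotidyltransferases then add untemplated bases to 3′ ends: TUT4 and TUT7 add U, and TENT2 is among the enzymes that add A. The 3p arm holds the 3′ end of the precursor, so a U tail on a 3p miRNA can be added before or after DICER1 has cut. Where LIN28A holds the let-7 precursor, TUT4 and TUT7 add a long U tail to it.

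RefSeq (GRCh38.p14) gave the mature sequence of 31 of the 35 members; miR-4664-3p, miR-5001-3p, miR-597-3p and miR-937-3p had no entry. The seed, bases 2 to 8 of the mature strand, is in capitals. The first lines show the 3 pairs of members that share a seed.
miR-148b-3p: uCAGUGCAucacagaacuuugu
miR-152-3p: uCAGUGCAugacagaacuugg
miR-132-3p: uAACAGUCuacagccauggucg
miR-212-3p: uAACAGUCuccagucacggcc
miR-30a-3p: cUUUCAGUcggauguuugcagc
miR-30e-3p: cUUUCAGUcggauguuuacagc
The next lines show the most abundant member, 3 of the members whose A share rose in all 3 lines, and a member that kept much of its U share in mutant 2 of IGROV1.
miR-23b-3p: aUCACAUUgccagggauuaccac
miR-744-3p: cUGUUGCCacuaaccucaaccu
miR-328-3p: cUGGCCCUcucugcccuuccgu
miR-3187-3p: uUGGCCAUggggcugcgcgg
miR-5010-3p: uUUUGUGUcucccauuccccag
The miR-148b strand lies at chr12:54337278-54337299, plus strand, in an intron of COPZ1, and the miR-152 strand at chr17:48037174-48037194, minus strand, in an intron of its paralogue COPZ2. The miR-132 strand (chr17:2049929-2049950, minus strand) and the miR-212 strand (chr17:2050290-2050310, minus strand) sit near each other outside annotated genes. The miR-30a strand (chr6:71403554-71403575, minus strand) lies in an intron of the noncoding LINC00472, and the miR-30e strand (chr1:40754413-40754434, plus strand) in an intron of NFYC. The miR-23b strand is in an intron of AOPEP (chr9:95085265-95085287, plus strand), and its near-identical paralogue miR-23a makes the assignment of its reads uncertain. The miR-744 strand is in an intron of MAP2K4 (chr17:12081966-12081987, plus strand), the miR-328 strand opposite an intron of ELMO3 (chr16:67202327-67202348, minus strand), the miR-3187 strand opposite an exon of PLPPR3 (chr19:813627-813646, plus strand), and the miR-5010 strand in an intron of ATP6V0A1 (chr17:42514267-42514288, plus strand).

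The annotated 3′ ends of the members differed from those of the other 3p miRNAs in base composition. The last annotated base was G in 14 of 31 members (45.2%) and in 25 of the other 3p miRNAs with a sequence (15.8%), and U in 5 members (16.1%) against 51 others (32.3%). The hairpin base that follows the mature strand was U in 2 of 28 members (7.14%) and in 41 of 129 others (31.8%). A read that ends in a U encoded by the hairpin cannot be told from a tailed one by its sequence, and the part of this in the selection was not tested. Both sets had a median length of 22 bases. MIR3065 and MIR3074 lie opposite MIR338 and MIR24-1 on the other strand.

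The targeted genes were read first in the mRNA libraries. TUT4 was at 47.7, 63.8, 65.2 and 50.2 CPM in wild-type DU145, 15.2, 12.9, 14.7 and 5.16 in mutant 1 and 41.4, 44.3, 42.1 and 26.0 in mutant 2. TUT7 was at 33.2, 52.5, 44.4 and 42.5 CPM in wild type, at 21.0, 11.8, 16.01 and 7.74 in mutant 1 and at 23.7, 24.9, 25.2 and 14.2 in mutant 2. Every mutant library lay below every wild-type library for both genes, and the mRNA of mutant 2 was the less reduced. In LIN28A-OE DU145, mutant 2 overlapped wild type for TUT4, at 52.6 to 57.5 against 53.4 to 72.6 CPM. In IGROV1 both mutants were below wild type for both genes. The mutations were placed in an internal exon of each gene, so reads from the rest of the transcript remain countable and the mRNA level does not measure the enzyme. By western blot, the study found TUT4 and TUT7 protein depleted in both mutant clones of DU145 and of IGROV1.

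In wild-type cells the members ranged from just past the limit to mostly uridylated. The median of their group means was 24.8% in DU145, 26.0% in IGROV1 and 21.5% in LIN28A-OE DU145, and for the other 3p miRNAs it was 3.84%, 3.09% and 3.79%. The most heavily uridylated member was miR-5001-3p in DU145, at 67.4% ± 7.45 (SD, n = 4), and miR-5010-3p in IGROV1, at 80.2% ± 5.02 (SD, n = 4). Just inside the limit stood miR-676-3p, with 15.1% in DU145, and miR-3605-3p, with 15.7%. Just outside it stood miR-3940-3p, with 14.97% in DU145, and miR-425-3p, with 14.8% in IGROV1.

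Most of these tails were a single U. Among the 28 members with at least 20 U-tailed reads in wild-type DU145, 1 U made up a median of 83.3% of the U-tailed reads and 2 U 10.8%. The corresponding medians were 88.9% and 7.83% in wild-type IGROV1 (28 members) and 85.6% and 11.2% in wild-type LIN28A-OE DU145 (30 members). Tails of 2 U were common in 3 members: they formed 40.4% of the U-tailed reads of miR-744-3p, 42.2% of those of miR-5001-3p and 40.6% of those of miR-937-3p in DU145. In the mutants, the few U-tailed reads left were 1 U long in a median of 96.2% to 98.1% of cases, over the 6 to 19 members that still had 20 such reads. By the position given in the tail tables, the single U most often directly followed the last base of the annotation those tables use, which was so in 20 of 35 members. In miR-30a-3p and miR-30e-3p it was placed 1 base earlier, in 99.1% and 93.5% of their reads with 1 U.

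The opposite arms carried few U tails. In wild-type DU145 the 5p partners of 21 members had a median U share of 1.61%, with 2.45% for 20 partners in IGROV1 and 2.31% for 24 in LIN28A-OE DU145. The 5p arm was the more abundant arm in 13 of 21, 13 of 20 and 14 of 24 of these hairpins.

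The mutants held few of these U tails. Over all reads of the 35 members, the U-tailed share was 29.9% to 32.5% in the 4 wild-type DU145 libraries, 0.252% to 0.331% in mutant 1 and 0.725% to 0.882% in mutant 2. In IGROV1 it was 26.1% to 27.5% in wild type, 1.34% to 1.46% in mutant 1 and 2.44% to 2.58% in mutant 2. In LIN28A-OE DU145 it was 21.1% to 24.8% in wild type, 0.369% to 0.472% in mutant 1 and 0.875% to 1.04% in mutant 2. In these pooled shares, wild type and mutants of each line were far apart. The lowest wild-type library of a member lay above its highest mutant library in 34 of 35 members in DU145, 29 in IGROV1 and 32 in LIN28A-OE DU145. The member that overlapped in DU145 was miR-5582-3p, and those in LIN28A-OE DU145 were miR-194-3p, miR-3074-3p and miR-4690-3p. Those in IGROV1 were miR-1915-3p, miR-2116-3p, miR-3200-3p, miR-4690-3p, miR-5582-3p and miR-597-3p. In DU145 and IGROV1 this count rests on the wild-type shares that chose the members. It was made for members only and is a description.

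**Figure D1:**
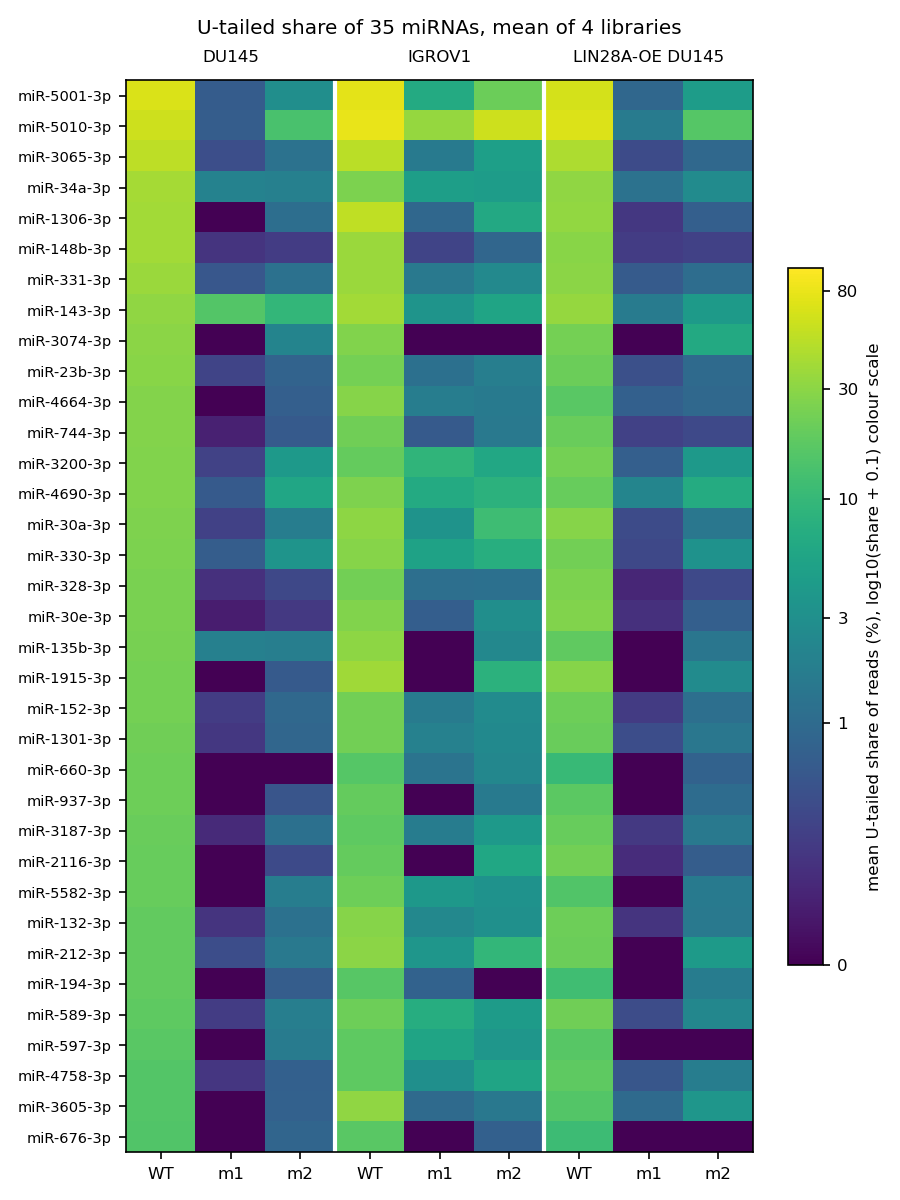
Mean U-tailed share of reads (%, colour on a log10(share + 0.1) scale) of the 35 members (rows, ordered by wild-type DU145) in wild type (WT), mutant 1 (m1) and mutant 2 (m2) of 3 lines, 4 libraries each (fewer where a library had no read of the miRNA). Wild-type columns are bright throughout and mutant columns dark, with miR-5010-3p still at 58.7% in mutant 2 of IGROV1.

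The seed is the part of a miRNA that pairs with its targets, and miR-148b-3p and miR-152-3p share it. U-tailed reads of miR-148b-3p made up 36.5%, 40.1%, 37.6% and 36.9% in the wild-type DU145 libraries, 0.170%, 0.182%, 0.185% and 0.197% in mutant 1 and 0.252%, 0.281%, 0.196% and 0.219% in mutant 2. For miR-152-3p they made up 19.9%, 26.5%, 23.7% and 24.1% in wild type, 0.324%, 0.203%, 0.186% and 0.242% in mutant 1 and 0.982%, 0.930%, 1.12% and 0.743% in mutant 2. In both miRNAs the groups were far apart, and in miR-152-3p every mutant 2 library was above every mutant 1 library. In IGROV1, the group means of miR-148b-3p were 35.02% ± 1.30 (SD, n = 4), 0.307% and 0.877% in wild type, mutant 1 and mutant 2, and those of miR-152-3p 22.6% ± 2.67 (SD, n = 4), 1.67% and 2.73%.

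The clustered pair miR-132-3p and miR-212-3p, known as activity-induced miRNAs in neurons, were close in U share in DU145. The U share of miR-132-3p was 19.2%, 19.2%, 20.5% and 17.8% in wild type, 0.255%, 0.216%, 0.202% and 0.0635% in mutant 1 and 1.32%, 0.874%, 1.87% and 0.844% in mutant 2. The rarer miR-212-3p gave group means of 19.0%, 0.414% and 1.54%. In IGROV1, where the 4 wild-type libraries held only 3 to 18 reads of miR-212-3p, its mean shares were 29.9%, 3.68% and 9.57%, and 1 mutant 1 library stood at 14.7% while the other 3 had no U-tailed read. For miR-132-3p the IGROV1 means were 28.6% ± 3.30 (SD, n = 4), 2.45% and 3.12%.

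The pair miR-30a-3p and miR-30e-3p, whose 5p partners belong to the broadly expressed miR-30 family, kept more tails in IGROV1. The U share of miR-30a-3p was 31.0%, 31.0%, 30.9% and 31.2% in wild-type IGROV1, 3.30%, 3.35%, 3.30% and 3.70% in mutant 1 and 11.4%, 11.5%, 11.4% and 11.5% in mutant 2. In DU145 its group means were 26.0%, 0.285% and 1.77%. The replicates of each IGROV1 group were tight, so mutant 2 stood clear of mutant 1 in every library. For miR-30e-3p the IGROV1 means were 27.2% ± 1.64 (SD, n = 4), 0.693% ± 0.158 (SD, n = 4) and 2.95% ± 0.280 (SD, n = 4), and the DU145 means 24.8% ± 1.34 (SD, n = 4), 0.0753% and 0.217%.

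Among the other abundant members, miR-23b-3p stood first by far, with a mean of 176301 reads over the 36 libraries against 20855 for miR-148b-3p in second place. Its U share was 27.8%, 30.7%, 30.3% and 29.0% in wild-type DU145, 0.268%, 0.275%, 0.366% and 0.339% in mutant 1 and 0.797%, 0.894%, 0.746% and 0.775% in mutant 2. In IGROV1 it was 23.6% ± 0.880 (SD, n = 4), 1.19% and 1.83%. Means in DU145 went from 35.6% to 0.552% and 1.21% for miR-331-3p, from 22.2% to 0.210% and 0.877% for miR-1301-3p, and from 25.4% to 0.671% and 3.46% for miR-330-3p. The same 3 miRNAs read 35.6%, 1.53% and 2.49%, then 23.2%, 1.97% and 2.53%, then 28.2%, 5.28% and 7.56% in IGROV1. miR-143-3p, best known from smooth muscle, had only 12 to 28 reads in a DU145 library, and its U share of 23.5%, 33.3%, 30% and 40.0% in wild type and 16.7%, 16%, 6.67% and 22.7% in mutant 1 rests on few reads. In IGROV1, with 29020 to 40363 reads per wild-type library, it was 38.1% ± 1.13 (SD, n = 4) in wild type, 3.44% in mutant 1 and 5.49% in mutant 2.

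**Figure D2:**
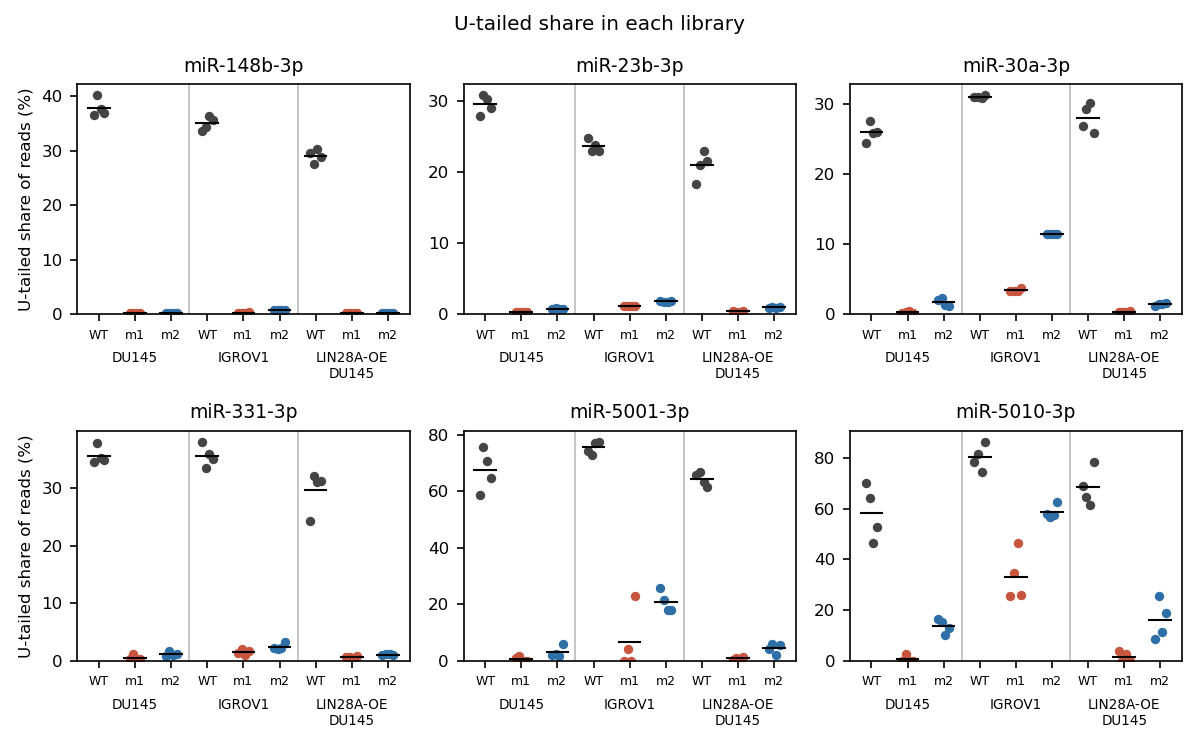
U-tailed share of reads (%) of 6 members in each library (points) with the group mean (line), for wild type (WT), mutant 1 (m1) and mutant 2 (m2) of 3 lines. miR-148b-3p was under 1% in every mutant library, while miR-30a-3p, miR-5001-3p and miR-5010-3p kept 11.4%, 20.8% and 58.7% in mutant 2 of IGROV1.

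The pair of members with most U tails in wild type, miR-5010-3p and miR-5001-3p, held many in the IGROV1 mutants too. For miR-5010-3p the U share was 70%, 64.4%, 46.7% and 52.9% in wild-type DU145, 0%, 2.70%, 0% and 0% in mutant 1 and 16.7%, 15.4%, 10.3% and 12.9% in mutant 2. In IGROV1 it was 78.5%, 81.6%, 74.5% and 86.4% in wild type, 25.7%, 34.7%, 46.3% and 25.8% in mutant 1 and 57.9%, 56.9%, 57.4% and 62.7% in mutant 2. Mutant 2 of IGROV1 thus had U on most reads of this miRNA, of which its libraries held 47 to 109. For miR-5001-3p the means were 67.4%, 0.656% and 2.98% in DU145 and 75.5%, 6.81% and 20.8% in IGROV1, where the mutant 1 libraries spread from 0% to 23.1%. Next in wild-type DU145 was miR-3065-3p, at 50.6%, 0.428% and 1.23%.

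Counting members, the mean U share was under 1% in 32 of 35 in mutant 1 and 16 of 35 in mutant 2 of DU145, in 11 and 4 in the mutants of IGROV1, and in 30 and 12 in those of LIN28A-OE DU145. It stayed at 5% or more in 1 and 3 members in DU145, in 7 and 12 in IGROV1, and in 0 and 3 in LIN28A-OE DU145. No U-tailed read at all was found for 12 members in mutant 1 of DU145. For one of them, miR-1306-3p, this was 0 of 248 reads, which allows a share of up to 1.21% (3 reads of the total, for counting error only). These counts were made for members only. As a background, the median U share of the other 3p miRNAs was 0.0402% and 0.174% in mutants 1 and 2 of DU145, against 0.184% and 1.18% for the members. In IGROV1 it was 0.301% and 0.402% against 1.67% and 3.26%, and in LIN28A-OE DU145 0.0576% and 0.279% against 0.238% and 1.46%.

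The LIN28A-OE DU145 libraries allowed a test, on log2 odds with 0.5 reads added, of the mean of both mutants against wild type (limma, Benjamini-Hochberg over 593 miRNAs, called at an adjusted p under 0.01). The same limit holds for every call below. It covered 33 members, since miR-1915-3p and miR-3074-3p had too few reads in a line. The U share fell in 33 of 33, with 60.2% of all tested miRNAs lower. The median log2 change was -4.81 over the members and -2.25 over all tested. In wild type of this line, the median U share was 21.5% over the members and 3.79% over the other 3p miRNAs. As the line derives from DU145, that gap goes back to the choice, and a share that starts low has less room to fall. The larger fall of the members is therefore not read as a trait of their own. The largest fall was that of miR-148b-3p, with 29.5%, 27.6%, 30.3% and 28.9% in wild type, 0.188%, 0.226%, 0.234% and 0.302% in mutant 1 and 0.292%, 0.292%, 0.291% and 0.235% in mutant 2 (log2 -7.31, SE 0.16, adjusted p = 8.08e-27). Next came miR-328-3p, with group means of 25.6%, 0.111% and 0.357% (log2 -7.18, SE 0.41, adjusted p = 2.69e-16), and miR-3065-3p with 42.2%, 0.385% and 0.921% (log2 -7.09, SE 0.55, adjusted p = 5.92e-13). Of the other abundant members, miR-23b-3p averaged 21.0% ± 1.94 (SD, n = 4) in wild type, 0.435% in mutant 1 and 0.976% in mutant 2, miR-30a-3p 28.1% ± 2.03 (SD, n = 4), 0.389% and 1.46%, and miR-30e-3p 26.6% ± 3.19 (SD, n = 4), 0.163% and 0.712%. For miR-152-3p the means were 21.5% ± 2.101 (SD, n = 4), 0.230% and 1.16%, for miR-132-3p 21.5% ± 3.73 (SD, n = 4), 0.184% and 1.55%, and for miR-331-3p 29.7% ± 3.60 (SD, n = 4), 0.622% and 1.08%. miR-1301-3p gave 20.6% ± 0.754 (SD, n = 4), 0.406% and 1.44%, miR-330-3p 23.1% ± 1.88 (SD, n = 4), 0.344% and 3.28%, and miR-143-3p 33.8% ± 12.004 (SD, n = 4), 1.66% and 4.17%. In each of these the mean was higher in mutant 2 than in mutant 1, a difference that was not tested in this line. Each mutant passed alone in 32 of these members, all but miR-4690-3p. Here and below, calls in each mutant alone were counted for members only, with no share over all tested miRNAs beside them. With a minimum mean total of 50 reads in each line, 19 members could be tested and 19 fell.

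LIN28A mRNA itself was not even across this comparison. It was 72.7, 68.1, 73.7 and 61.4 CPM in the wild-type libraries, 401, 319, 377 and 368 in mutant 1 and 206, 287, 214 and 227 in mutant 2, and its part in the results of this line was not tested. In IGROV1 the group means were 241, 224 and 285 CPM.

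Unmodified reads made up more of the reads in the mutants. This share is taken over all reads, so that the loss of U raises it by itself. The median unmodified share of the members was 59.0% in wild-type DU145, 75.4% in mutant 1 and 80.1% in mutant 2, and 62.8%, 86.7% and 82.4% in IGROV1. Among the 33 members tested in LIN28A-OE DU145, 20 rose (22.8% of all tested miRNAs) and none fell, and 16 of the 20 passed in each mutant alone. For the same reason, nothing beyond the fall in U is read from that count. The unmodified share of miR-148b-3p rose from 64.0% ± 1.59 (SD, n = 4) to 92.4% and 93.7% (log2 2.92, SE 0.07, adjusted p = 2.55e-24). That of miR-5010-3p rose from 13.7% ± 2.84 (SD, n = 4) to 76.5% and 63.2% (log2 3.84, SE 0.31, adjusted p = 1.17e-11), and that of miR-5001-3p from 14.6% ± 2.996 (SD, n = 4) to 57.6% and 54.3% (log2 2.90, SE 0.23, adjusted p = 8.33e-12). miR-744-3p passed for the mean of both mutants but read 70.4% in wild type, 69.6% in mutant 1 and 83.7% in mutant 2, with a log2 change of -0.06 in mutant 1 alone.

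Members differed in how many U tails outlasted the mutations, and more were left in IGROV1 than in DU145. The test of IGROV1 mutants against DU145 mutants, on log2 odds, called 22 of 33 members higher (35.9% of all tested miRNAs higher) and 2 lower (7.93%). The median log2 difference was 1.94 over the members and 0.71 over all tested. The largest difference was that of miR-5010-3p (log2 3.94, SE 0.34, adjusted p = 2.63e-11), followed by miR-30e-3p (log2 3.59, SE 0.38, adjusted p = 2.24e-09) and miR-30a-3p (log2 3.26, SE 0.18, adjusted p = 6.32e-16). Those lower in IGROV1 were miR-143-3p (log2 -1.62, SE 0.39, adjusted p = 0.000760) and miR-676-3p (log2 -1.50, SE 0.38, adjusted p = 0.00111). As stated above, miR-143-3p had few reads in DU145, so the DU145 side of its difference rests on few reads. For miR-676-3p the means were 0% and 0.862% in the DU145 mutants against 0% and 0.729% in the IGROV1 mutants. At 13 to 160 reads per mutant library, its fitted value follows the number of reads as well as the share. When libraries with fewer than 10 reads of a miRNA were left out, a choice made after the values were seen, 22 of the 24 calls held. miR-135b-3p then had no value, because its mutant 1 libraries of IGROV1 held 0 to 3 reads each, and miR-4664-3p no longer passed.

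**Figure D3:**
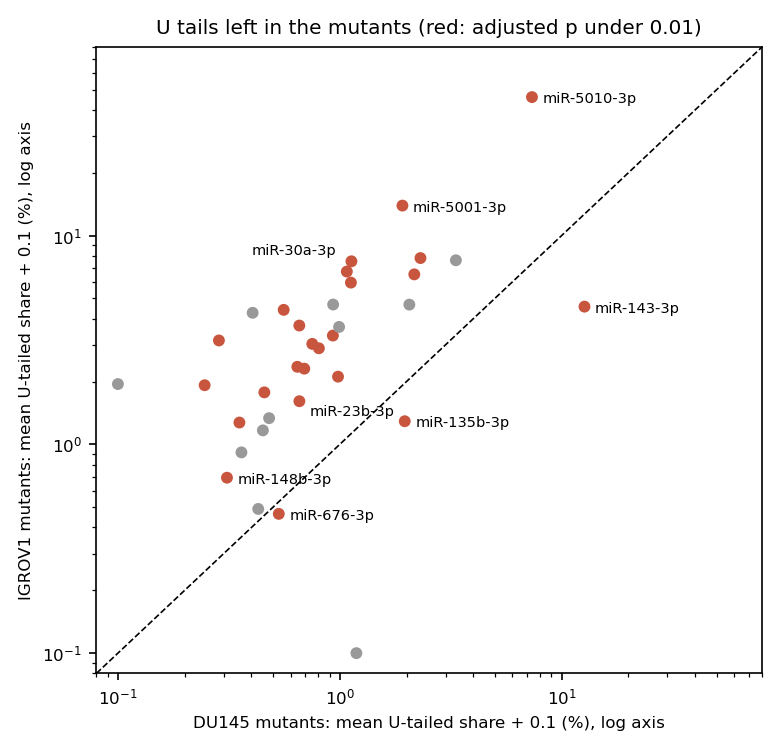
Mean U-tailed share over both mutants plus 0.1 (%), DU145 on the horizontal and IGROV1 on the vertical log axis, one point per member, red where the 2 lines' mutants differ at an adjusted p under 0.01, with equality dashed. Most points lie above the line, with miR-5010-3p farthest up, and miR-143-3p, which had few reads in DU145, lies well below it.

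The mutants of a line also differed from each other. As in the test between lines, a larger share of members called than of all tested is not read as a trait of the members. In DU145, 11 of 33 members had a higher residual U share in mutant 2 than in mutant 1 (19.7% of all tested), led by miR-5010-3p (log2 3.35, SE 0.48, adjusted p = 1.64e-06), miR-3200-3p (log2 3.16, SE 0.48, adjusted p = 3.19e-06) and miR-30a-3p (log2 2.65, SE 0.25, adjusted p = 7.26e-10). With libraries weighted by their counting variance, 5 passed. In IGROV1, 3 members were higher in mutant 2 (3.54%): miR-148b-3p (log2 1.52, SE 0.19, adjusted p = 2.55e-07), miR-30a-3p (log2 1.87, SE 0.25, adjusted p = 1.44e-06) and miR-30e-3p (log2 2.13, SE 0.54, adjusted p = 0.00905). The number was 6 with those weights and 5 with 2 reads added in place of 0.5. miR-30e-3p lost the call when any 1 of the 8 mutant libraries was left out, and also when libraries with under 10 reads of it were left out, which kept 2 members.

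Of 33 listed genes for tail enzymes, exonucleases and the miRNA machinery, 31 could be tested, against a background of 18%, 33.2% and 17.9% of all genes called in DU145, IGROV1 and LIN28A-OE DU145. In DU145, 5 fell and none rose, in IGROV1 14 fell and 1 rose, and in LIN28A-OE DU145 7 fell and 3 rose. TUT4 and TUT7 were the listed genes that fell in all 3 lines, by 1.39, 1.52 and 1.02 and by 1.29, 1.15 and 1.20 on the log2 scale (edgeR quasi-likelihood, adjusted p = 0.00017 or less). TENT2, an adenylating enzyme, averaged 55.7, 61.4 and 48.7 CPM in DU145. In IGROV1 it fell from 41.9, 48.4, 51.7 and 51.8 CPM to 31.5, 38.8, 31.5 and 13.5 in mutant 1 and 42.0, 40.5, 39.9 and 24.0 in mutant 2 (log2 -0.57, SE 0.16, adjusted p = 0.00393), with 1 mutant 2 library inside the wild-type range and replicate 4 of each mutant the lowest. The study, by contrast, reports no significant change in the RNA of TENT2, which it calls TUT2, or of the exonuclease gene PARN. Here PARN was called lower in IGROV1 (log2 -0.28) and higher in LIN28A-OE DU145 (log2 0.29), and was not called in DU145 (log2 0.21). Chosen after their values were seen, AGO1 to AGO4, which bind mature miRNAs, fell in IGROV1 by 0.51, 0.33, 0.50 and 0.62 on the log2 scale. The other genes that fell in DU145, likewise, were the exonuclease gene ERI1 and the nucleotidyltransferase genes TENT4B and TENT5C, by 1.21, 0.72 and 1.90. All of these fell in LIN28A-OE DU145 too, by 1.03, 0.54 and 1.13. In IGROV1, by contrast, TENT5C was the listed gene that rose (log2 2.03), and ERI1 and TENT4B were not called (log2 0.46 and 0.12). The largest fall of a tested listed gene in IGROV1 was that of the exonuclease gene ISG20 (log2 -2.17). Without replicate 3 of wild-type IGROV1, 9 listed genes were called there in place of 15.

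A tails were then measured only among reads without a U tail, so that the loss of U could not raise the A share through its denominator. By this measure, tested on log2 odds with limma, A rose in 7 of 33 members in DU145 (20.1% of all tested miRNAs rose), 7 in IGROV1 (11.3%) and 6 in LIN28A-OE DU145 (11.8%). In IGROV1, 1 member fell (1.52%). The members' median log2 changes were 0.43, 0.33 and 0.49, and those of all tested miRNAs 0.36, 0.25 and 0.26. The share of members that rose, 7 of 33, was close to the background in DU145. In IGROV1, 5 members were called in place of 8 without wild-type replicate 3.

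The members that rose in all 3 lines were 5: miR-744-3p, miR-328-3p, miR-5001-3p, miR-30e-3p and miR-3187-3p. Of these, miR-3187-3p lost the call in LIN28A-OE DU145 when any 1 of 7 of its 12 libraries was left out and in IGROV1 without wild-type replicate 2 or 3 or mutant 2 replicate 3, and miR-5001-3p lost it in IGROV1 without wild-type replicate 3. The A share of miR-744-3p was 5.04%, 4.87%, 7.44% and 6.63% in wild-type DU145, 22.4%, 25.3%, 20.9% and 23.2% in mutant 1 and 21.4%, 19.8%, 19.1% and 23.7% in mutant 2 (log2 2.12, SE 0.17, adjusted p = 3.72e-11). In IGROV1 it was 2.80%, 3.68%, 2.26% and 2.33% in wild type, 10.2%, 10.4%, 12.4% and 12.7% in mutant 1 and 5.79%, 11.9%, 11.96% and 10.3% in mutant 2 (log2 2.04, SE 0.17, adjusted p = 1.14e-10). In LIN28A-OE DU145 it went from 5.77% ± 0.554 (SD, n = 4) to 25.2% and 13.3% (log2 1.86, SE 0.17, adjusted p = 1.06e-09). In each line the groups did not overlap, and this was the only member called in each mutant alone in all 3 lines.

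For miR-328-3p the A share was 20.6%, 12.1%, 20.7% and 13.2% in wild-type DU145, 36%, 36.3%, 35.5% and 32.3% in mutant 1 and 32.0%, 31.0%, 31.8% and 30.8% in mutant 2 (log2 1.34, SE 0.15, adjusted p = 4.23e-08). In IGROV1 the means were 13.9% ± 1.75 (SD, n = 4), 23.7% and 20.1%, and in LIN28A-OE DU145 20.1% ± 1.14 (SD, n = 4), 34.8% and 31.0%. All mutant libraries lay above the wild-type libraries of their line. For miR-5001-3p, whose reads without a U tail were few in wild type, the means were 11.1% ± 3.93 (SD, n = 4), 33.9% and 38.5% in DU145 (log2 2.13, SE 0.42, adjusted p = 0.000181), and 7.72% ± 7.25 (SD, n = 4), 24.9% and 16.7% in IGROV1, where the wild-type and mutant libraries overlapped. In LIN28A-OE DU145 they were 10.1% ± 2.73 (SD, n = 4), 36.1% and 36.4% (log2 2.33, SE 0.42, adjusted p = 7.34e-05).

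For miR-30e-3p the means rose from 4.93% ± 0.350 (SD, n = 4) to 8.604% and 6.93% in DU145, from 3.95% ± 0.266 (SD, n = 4) to 6.19% and 5.38% in IGROV1 and from 6.03% ± 0.844 (SD, n = 4) to 13.4% and 8.86% in LIN28A-OE DU145. Its seed partner miR-30a-3p passed only in IGROV1, where each mutant alone was called, with 4.02%, 4.21%, 4.44% and 4.43% in wild type, 6.29%, 6.49%, 6.60% and 6.38% in mutant 1 and 5.91%, 5.91%, 6.07% and 5.83% in mutant 2 (log2 0.56, SE 0.11, adjusted p = 0.000435). miR-3187-3p had the most A tails of the 5, at 29.3% ± 5.84 (SD, n = 4), 48.1% and 44.7% in DU145. In IGROV1 the means were 25.0% ± 7.80 (SD, n = 4), 37.6% and 35.1%, and wild-type and mutant libraries overlapped there and in LIN28A-OE DU145, where they were 35.2% ± 8.05 (SD, n = 4), 52.1% and 43.9%. The further rises were those of miR-1301-3p and miR-4758-3p in DU145 (log2 0.65 and 1.07), miR-676-3p in IGROV1 (log2 1.92, from 3.995% to 9.53% and 12.3%) and miR-2116-3p in LIN28A-OE DU145 (log2 1.85, from 2.47% to 10.01% and 6.86%).

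The most abundant member, miR-23b-3p, was not called in any line, with means of 7.70%, 9.50% and 7.51% in wild type, mutant 1 and mutant 2 of DU145, 4.14%, 3.64% and 3.96% in IGROV1 and 7.52%, 9.75% and 6.85% in LIN28A-OE DU145. Nor was miR-152-3p, at 16.2%, 22.2% and 17.2%, 10.2%, 11.7% and 12.8%, and 16.9%, 23.9% and 15.9% in the same groups.

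The member that fell was miR-148b-3p, the seed partner of miR-152-3p, in IGROV1. Its A share was 3.61%, 4.20%, 4.23% and 4.05% in wild type, 2.52%, 2.84%, 2.83% and 2.37% in mutant 1 and 2.33%, 2.44%, 2.45% and 2.23% in mutant 2, with no overlap (log2 -0.71, SE 0.11, adjusted p = 1.38e-05). In DU145 the libraries read 7.48%, 5.93%, 5.99% and 6.08% in wild type, 6.55%, 6.38%, 6.20% and 6.60% in mutant 1 and 6.08%, 5.33%, 6.03% and 6.63% in mutant 2, and the groups overlapped. The change in IGROV1 was lower than that in DU145 (log2 -0.68, SE 0.16, adjusted p = 0.00348; 6.24% of all tested miRNAs were lower in this difference). This was the only member called for that difference, and the call was lost without replicate 2, 3 or 4 of wild-type DU145, while 2 members were called without replicate 2 of wild-type IGROV1. No member differed between LIN28A-OE DU145 and DU145 by limma (0.337% of all tested, 1 member at an unadjusted p under 0.05, and 0 with a replicate block).

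**Figure D4:**
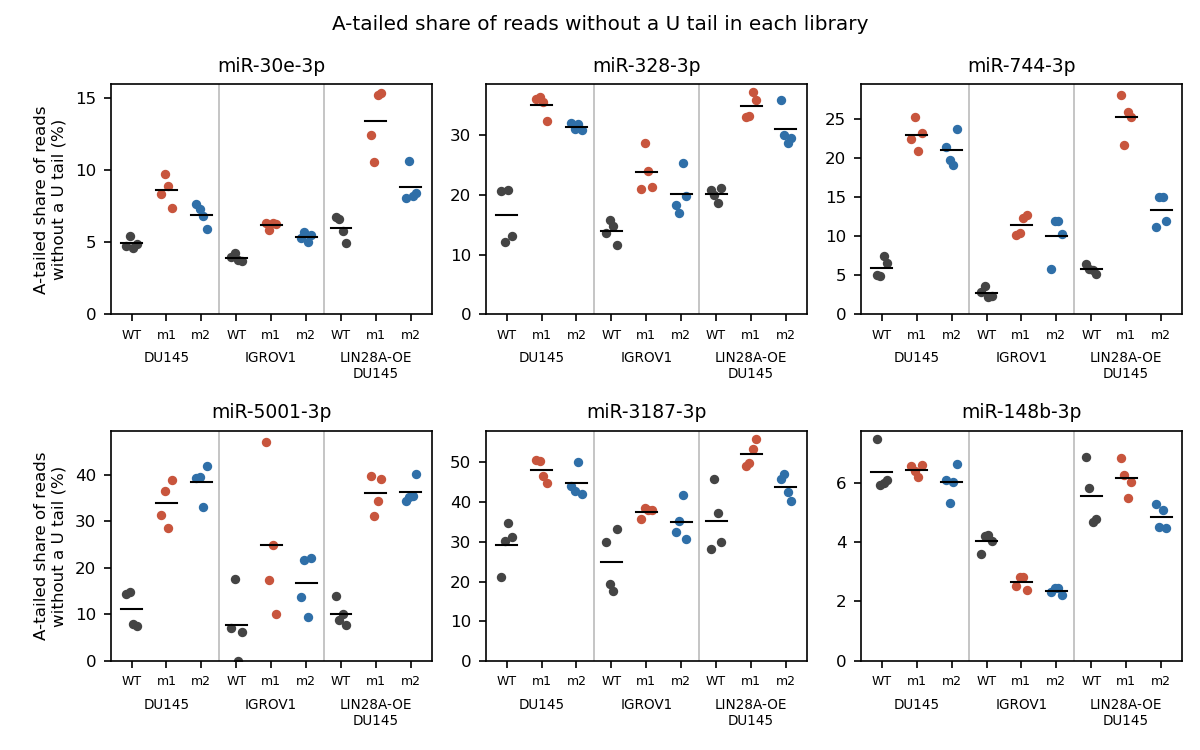
A-tailed share of the reads without a U tail (%) of 6 members in each library (points) with the group mean (line), for wild type (WT), mutant 1 (m1) and mutant 2 (m2) of 3 lines. In miR-744-3p and miR-328-3p the mutants lie above wild type in every line, and in miR-148b-3p they lie below it in IGROV1, at 2.64% and 2.36% against 4.02%.

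The members' abundance was counted separately, from the miRDeep2 table. In that table, the LIN28A-OE DU145 columns of wild-type replicate 2 and mutant 1 replicate 2 each lay nearest to the other's tail table, while the other 34 of 36 columns lay nearest to their own. The U tails of both libraries followed the labels in the tail tables. The columns were used as named. For that line, the counts of called members are also given without them, and so are single values where this is stated.

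Together the members made up 0.835% to 0.948% of the reads of wild-type DU145 libraries, 3.40% to 4.21% in wild-type IGROV1 and 1.25% to 1.64% in wild-type LIN28A-OE DU145. Of the 35 members (edgeR quasi-likelihood, 830 miRNAs tested), 11 rose (9.64% of all tested) and 1 fell (11.1%) in DU145, 12 rose (18.2%) and 12 fell (20.8%) in IGROV1, and 6 rose (2.17%) and 1 fell (2.17%) in LIN28A-OE DU145. The median log2 changes were 0.24, -0.21 and 0.19, and those over all tested miRNAs lay within 0.04 of 0. Without the mismatched columns, 10 rose (13.5% of 850 tested) and 5 fell (14.2%) in LIN28A-OE DU145. Called as higher only without them were miR-30a-3p, miR-132-3p, miR-212-3p and miR-4690-3p (log2 1.43, 1.00, 1.34 and 1.79). Called as lower only without them were miR-148b-3p, miR-331-3p, miR-135b-3p and miR-4664-3p (log2 -0.73, -0.69, -1.23 and -1.14). With the totals of the tail tables in place of miRDeep2 counts, 12 rose (10.1% of 929 tested) and 10 fell (17.3%) in DU145, 12 rose (18.4%) and 17 fell (24.5%) in IGROV1, and 10 rose (11.6%) and 8 fell (19.5%) in LIN28A-OE DU145. The members' median log2 changes were then -0.01, -0.33 and -0.14, against -0.07, -0.10 and -0.09 over all tested, so the sign of the median in both DU145 lines depended on the count source. These calls include every member called from miRDeep2 counts with all columns, in the same direction.

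**Figure D5:**
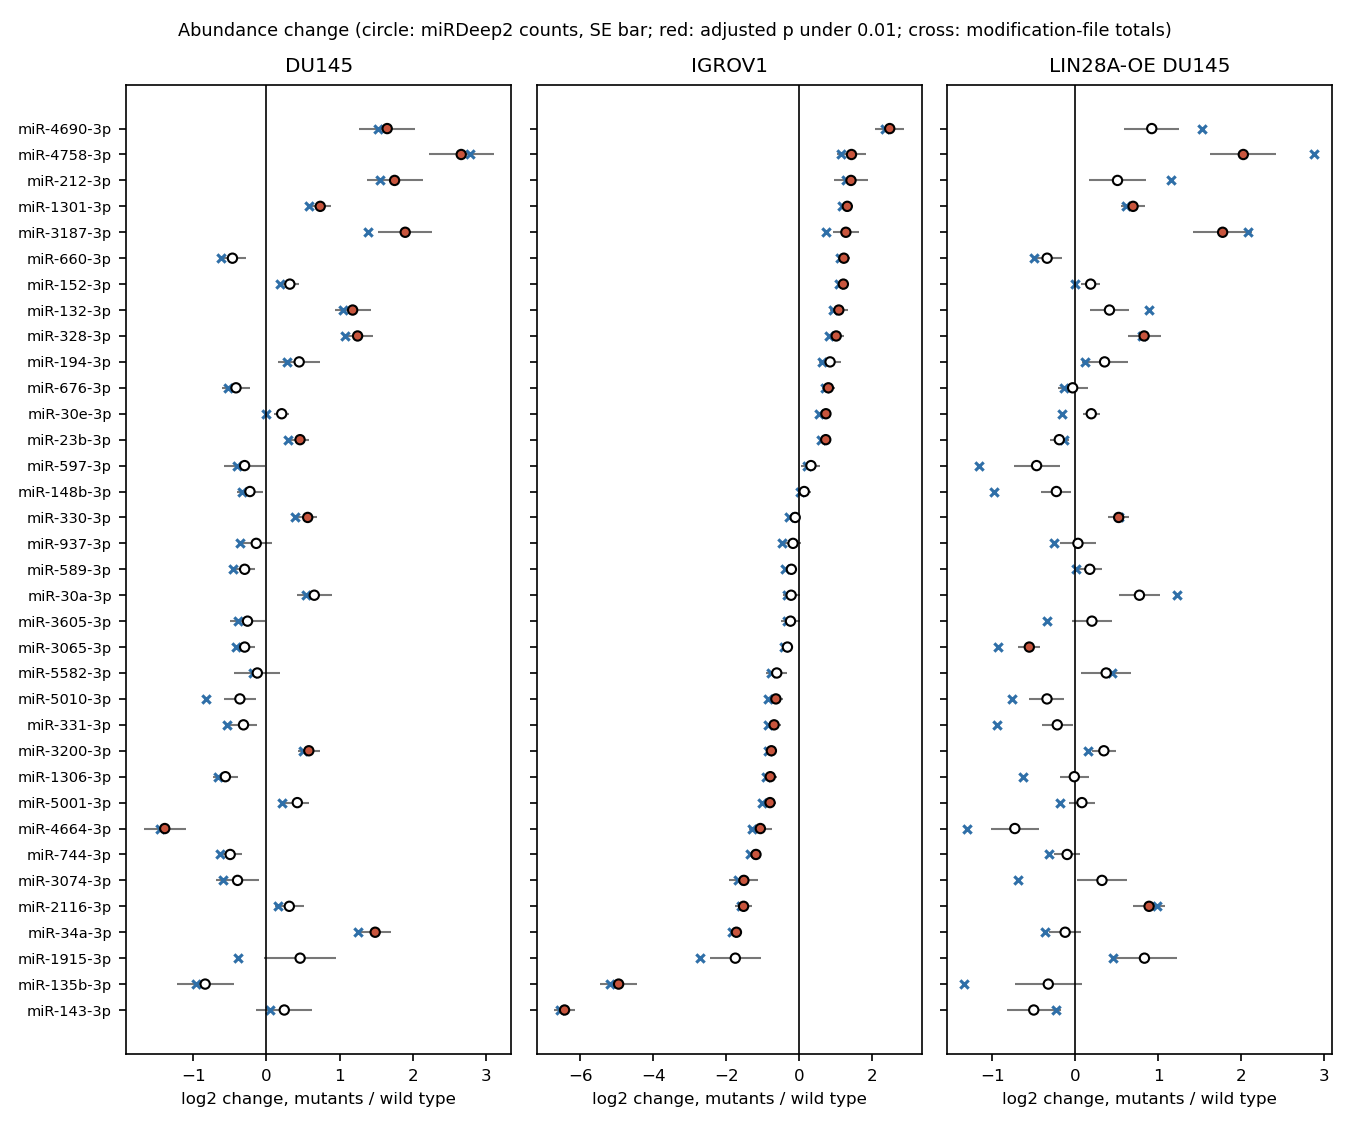
Log2 change in abundance of the 35 members, mean of both mutants against wild type, in 3 lines (circles with SE bars from miRDeep2 counts, red at an adjusted p under 0.01; crosses from tail-table totals). Members are ordered by IGROV1, from miR-143-3p at -6.44 to miR-4690-3p at 2.49.

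Higher in all 3 lines were miR-4758-3p, miR-3187-3p, miR-328-3p and miR-1301-3p, of which miR-328-3p and miR-3187-3p were also among those with more A tails. The abundance of miR-4758-3p was 2.40, 2.13, 2.02 and 2.88 CPM in wild-type DU145, 11.2, 18.9, 15.1 and 11.2 in mutant 1 and 15.2, 20.1, 12.5 and 14.7 in mutant 2 (log2 2.66, SE 0.45, adjusted p = 2.79e-05). In IGROV1 it rose from 3.98 ± 0.675 (SD, n = 4) to 10.1 and 10.4 CPM (log2 1.44, SE 0.40, adjusted p = 0.00306). In LIN28A-OE DU145 the wild-type columns read 2.63, 13.7, 2.60 and 3.47 CPM and those of mutant 1 24.1, 2.77, 19.6 and 20.03, in which the mismatched columns are the ones that break the separation of the groups. The log2 change there was 2.03 with them and 3.15 without. miR-3187-3p went from 7.91 ± 1.81 (SD, n = 4) to 17.9 and 48.6 CPM in DU145 (log2 1.90, SE 0.37, adjusted p = 0.000196), and its log2 change in LIN28A-OE DU145 was 1.78 with and 2.70 without those columns. miR-1301-3p went from 204 ± 15.1 (SD, n = 4) to 286 and 403 CPM in DU145 and from 166 ± 18.5 (SD, n = 4) to 331 and 469 CPM in IGROV1, where each mutant alone was called.

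In DU145, 5 of the 11 members that rose were called in each mutant alone: miR-212-3p, miR-328-3p, miR-34a-3p, miR-4690-3p and miR-4758-3p. miR-212-3p rose from 3.25 ± 0.822 (SD, n = 4) to 13.1 and 8.97 CPM (log2 1.75, SE 0.38, adjusted p = 0.000586). The member that fell was miR-4664-3p, from 6.31 ± 1.31 (SD, n = 4) to 1.72 and 3.32 CPM (log2 -1.39, SE 0.29, adjusted p = 0.000328). The abundant miR-23b-3p passed as higher for the mean of both mutants (log2 0.46, SE 0.12, adjusted p = 0.00330), but the mutants went apart: it was 4819.8, 5654, 5403 and 6108 CPM in wild type, 13563, 15279, 14675 and 13797 in mutant 1 and 4118, 4397, 4017 and 3346 in mutant 2. Mutant 2 alone gave a log2 change of -0.43.

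In IGROV1, 2 members fell far more than the rest. miR-143-3p, the fourth most abundant member over all libraries, was at 3068, 2719, 2969.9 and 3354 CPM in wild type, 12.01, 15.1, 14.2 and 20.4 in mutant 1 and 47.6, 56.2, 84.1 and 101 in mutant 2 (log2 -6.44, SE 0.29, adjusted p = 2.75e-19). miR-135b-3p was at 14.1, 10.8, 10.8 and 8.43 CPM in wild type, 0, 0.0780, 0.370 and 0 in mutant 1 and 1.08, 1.43, 0.735 and 0 in mutant 2 (log2 -4.95, SE 0.50, adjusted p = 5.26e-10), so its fitted change rests on a handful of reads in the mutants. miR-34a-3p, from the p53-responsive MIR34A locus, fell from 29.4 ± 1.20 (SD, n = 4) to 5.73 and 12.5 CPM (log2 -1.72, SE 0.16, adjusted p = 3.60e-11), whereas it rose in DU145 from 1.91 ± 0.435 (SD, n = 4) to 5.32 and 5.36 CPM. The largest rises in IGROV1 were miR-4690-3p (log2 2.49, SE 0.40, adjusted p = 2.53e-06), miR-4758-3p and miR-212-3p (log2 1.43, SE 0.45, adjusted p = 0.00895), all at 12.9 CPM or less in every IGROV1 library. miR-3200-3p fell for the mean of both mutants, and mutant 2 alone gave a log2 change of 0.54. Called in each mutant alone were 8 of the 12 that rose and 5 of the 12 that fell.

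Epithelial marker mRNA also differed between the IGROV1 groups. Summed over EPCAM, KRT8, KRT18 and CDH1, it was 478 to 605 CPM in wild-type IGROV1 libraries, 215 to 479 in mutant 1 and 28.9 to 53.2 in mutant 2. EPCAM was at 84.5, 74.2, 90.5 and 81.1 CPM in wild-type IGROV1, 0.498, 0.340, 0.220 and 0 in mutant 1 and 0, 0.164, 0.159 and 0.226 in mutant 2, and KRT8 averaged 208, 3.12 and 1.65 CPM. CDH1 averaged 4.82, 1.03 and 0.240 CPM and KRT18 241, 325 and 35.2. EPCAM, KRT8 and CDH1 were thus lower in both mutants and KRT18 in mutant 2. In DU145 the same sum was 1019 to 1908 CPM in wild type, 1375 to 1934 in mutant 1 and 1999.8 to 2743 in mutant 2. In LIN28A-OE DU145 it was 1195 to 2178, 1563 to 1989 and 1899 to 2611. These sums, mostly KRT8 and KRT18, hid lower EPCAM and CDH1 in mutant 1, and lower CDH1 in mutant 2 of DU145. EPCAM averaged 54.8, 11.5 and 54.3 CPM in wild type, mutant 1 and mutant 2 of DU145, and CDH1 85.5, 41.6 and 61.3. In LIN28A-OE DU145, EPCAM averaged 40.6, 15.03 and 72.7 CPM and CDH1 160, 95.4 and 141. In both lines, every mutant 1 library lay below every wild-type library for EPCAM and CDH1. For CDH1 in DU145 every mutant 2 library did too, the highest at 78.04 CPM against 78.12 in the lowest wild-type library. KRT8 and KRT18 means were not lower in mutant 1 of either line. The part of these marker differences in the miRNA changes of each line was not tested. In bulk samples, a change in the cells' makeup and a change in RNA per cell cannot be told apart.

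The change in abundance differed between IGROV1 and DU145 for 11 members, 4 with a higher change in IGROV1 (9.64% of all tested miRNAs) and 7 with a lower one (10.7%). The lower ones were led by miR-143-3p (log2 -6.68, SE 0.48, adjusted p = 4.51e-13), miR-135b-3p (log2 -4.12, SE 0.69, adjusted p = 1.35e-05) and miR-34a-3p (log2 -3.21, SE 0.27, adjusted p = 8.42e-12). The higher ones were led by miR-660-3p (log2 1.69, SE 0.25, adjusted p = 1.09e-06), miR-676-3p (log2 1.22, SE 0.26, adjusted p = 0.000339) and miR-152-3p (log2 0.90, SE 0.17, adjusted p = 6.28e-05). miR-660-3p was at 5.71 ± 1.09 (SD, n = 4), 14.7 and 10.9 CPM in IGROV1 and at 5.31 ± 1.19 (SD, n = 4), 3.88 and 3.88 CPM in DU145. Between LIN28A-OE DU145 and DU145, whose mutants carry the same clone names, 1 member had a lower change (1.57% of all tested), miR-34a-3p (log2 -1.61, SE 0.29, adjusted p = 0.000247). Without the mismatched columns 4 members were called (6.71% of all tested). Lower were miR-34a-3p (log2 -1.76), miR-148b-3p (log2 -0.49) and miR-23b-3p (log2 -0.47), and miR-30a-3p was higher (log2 0.79). With single libraries left out, 2 were called without wild-type replicate 1, without mutant 1 replicate 1, 2 or 3 or mutant 2 replicate 4 of LIN28A-OE DU145, or without mutant 2 replicate 4 of DU145.

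In LIN28A-OE DU145 the member that fell was miR-3065-3p, at 84.6, 73.1, 84.4 and 80.7 CPM in wild type, 59.2, 111, 63.6 and 47.9 in mutant 1 and 37.0, 46.0, 31.6 and 34.3 in mutant 2 (log2 -0.55, SE 0.13, adjusted p = 0.00667), the mismatched columns being the lowest wild-type and the highest mutant value. miR-2116-3p rose from 13.4 to 17.9 and 29.0 CPM (log2 0.89, SE 0.20, adjusted p = 0.00351). Without the mismatched columns, the log2 change was -0.78 for miR-3065-3p and 1.06 for miR-2116-3p. None of the 7 members called in this line passed in each mutant alone. This check, and the omission of single libraries that follows, were run with mismatched columns still in the fits. The calls without both of those columns are given above. The number called ranged from 0 to 12 when single libraries were left out: 12 without wild-type replicate 2, 1 without wild-type replicate 1 or 3, 0 without wild-type replicate 4, and 4 without mutant 1 replicate 1 or 3 or mutant 2 replicate 4.

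The balance between the arms of the members' hairpins was compared last, as the log2 ratio of 5p to 3p counts in 17 hairpins out of 135 tested. No member passed in DU145 (5.93% of all hairpins called, 4 members at an unadjusted p under 0.05), in IGROV1 (3.7%, 4 members) or in LIN28A-OE DU145 (0%, 3 members). In IGROV1, miR-1306 and miR-331 leaned toward the 5p arm by 0.94 and 0.46 on the log2 scale (adjusted p = 0.0145 by limma for both). Without the mismatched columns, 4 hairpins of members passed in LIN28A-OE DU145 (12.6% of all hairpins), miR-23b and miR-3065 toward the 5p arm (log2 0.52 and 0.63) and miR-30e and miR-330 toward the 3p arm (log2 -0.97 and -0.99), and 3 passed without mutant 1 replicate 2 alone. In IGROV1, 1 hairpin passed without mutant 1 replicate 4.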

How the data were processed

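Small RNA and mRNA libraries (36 each; 3 lines, wild type and 2 mutants, 4 libraries per group) were compared. For small RNA, the authors trimmed adapters and 4 random bases at each end with cutadapt and deposited, per library, read counts of each miRNA, tail and position. The study's methods name Chimira and sRNAbench for tails, and which of them wrote these files is not stated, nor is whether PCR duplicates were collapsed. The authors' miRDeep2 table (default settings, hg38) holds counts per precursor, with 5703566 to 13957450 per library, and 36 normalized columns that were not used here. For mRNA, the authors deposited HTSeq counts of reads trimmed with Trimmomatic 0.39, cleared of rRNA with sortmeRNA and aligned with HISAT2 2.1.0 to hg38, with 7195437 to 25054688 per library. The HTSeq summary lines, 21.9% to 30.1% of reads, were left out of library sizes.

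Tail reads were summed per miRNA as U only, A only or unmodified. Shares were tested as log2 odds with 0.5 reads added, over miRNAs with a mean of at least 10 reads in the 12 libraries of each line, with limma 3.58.1. Abundance and mRNA were tested with edgeR 4.0.16 (quasi-likelihood test, TMM scaling, filterByExpr), and arm ratios with limma, in R 4.3.3. For a miRNA with several precursors, the precursor with the highest total was used. Each fit held all 36 libraries of its assay in 9 groups. Contrasts took the mean of both mutants against wild type of the line, and Benjamini-Hochberg adjustment ran over everything tested. The steps were tested on simulated data. DESeq2 1.42.0 and other settings served as alternatives.

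The members and the gene lists were chosen with earlier results of these data known. Values in every group are named for the 10 members with the most reads, the 3 largest called rises and falls of each comparison, and members that share a seed. Of the listed genes, TUT4, TUT7, LIN28A, TENT2 and any called in all 3 lines are named. Other members and genes were named after their values were seen. The 4 libraries of a group are successive passages of a culture, so p-values measure only the spread between passages. Replicate numbers were not used to pair groups in the main fits, although mRNA libraries of the same number partly deviated together. Counting limits cover counting error only. Some of the listed cell type markers are not reported here.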

Additional observations from a re-analysis of the deposited data

Results flagged for a closer look

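In 17 of 180 groups of 4 libraries, 1 library stood apart from the other 3 in the U share, or in the A share of reads without a U tail, of the 10 most abundant members, where chance alone marks about 5% of groups, that is 1 in 20. For the U share, these were miR-148b-3p in LIN28A-OE DU145 mutant 2 replicate 4 (0.235%, with 0.291% in the next library), miR-30a-3p in IGROV1 mutant 1 replicate 4 (3.70%, next 3.35%) and miR-30a-3p in LIN28A-OE DU145 mutant 1 replicate 4 (0.497%, next 0.364%). For miR-331-3p, 3 libraries stood apart: DU145 mutant 1 replicate 2 (1.19%, next 0.397%), IGROV1 mutant 2 replicate 4 (3.24%, next 2.31%) and LIN28A-OE DU145 wild-type replicate 1 (24.4%, next 31.1%). For miR-152-3p it was IGROV1 wild-type replicate 2 (26.6%, next 21.7%).

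For the A share, replicate 1 of wild-type DU145 was highest for miR-23b-3p (8.59%, next 7.43%), miR-148b-3p (7.48%, next 6.08%) and miR-132-3p (17.4%, next 14.5%), and replicate 1 of wild-type LIN28A-OE DU145 for miR-23b-3p (8.87%, next 7.16%). The A share of miR-143-3p was 37.5% in LIN28A-OE DU145 mutant 2 replicate 4 (next 5.88%), a library with 9 reads of it. The others were miR-1301-3p in LIN28A-OE DU145 mutant 2 replicate 1 (10.3%, next 8.07%), miR-30e-3p in IGROV1 mutant 1 replicate 2 (5.83%, next 6.28%) and in LIN28A-OE DU145 mutant 2 replicate 2 (10.6%, next 8.46%), and miR-152-3p in DU145 wild-type replicate 3 (18.3%, next 15.7%) and in IGROV1 mutant 1 replicate 2 (13.3%, next 11.3%).

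Some changes differed between lines by a test of the difference itself. The change in A share of miR-148b-3p was lower in IGROV1 than in DU145 by a log2 difference of -0.68. For the change in abundance, IGROV1 minus DU145, the log2 difference was -6.68 for miR-143-3p, -4.12 for miR-135b-3p, -3.21 for miR-34a-3p, -1.84 for miR-2116-3p, -1.34 for miR-3200-3p, -1.22 for miR-5001-3p and -0.67 for miR-330-3p. It was 1.69 for miR-660-3p, 1.22 for miR-676-3p, 0.90 for miR-152-3p and 0.53 for miR-30e-3p. LIN28A-OE DU145 minus DU145 gave -1.61 for miR-34a-3p, and -1.76 without the mismatched columns.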

How the results depend on the processing

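The limits of these counts lie in rare members, since many mutant libraries held fewer than 50 reads of a member, and in the abundance of LIN28A-OE DU145. Of the alternatives, 420 counts of members or listed genes stayed within 1.5 times the reported one, 31 were larger and 24 smaller. Of the values of single members and genes, 3395 kept direction and call, 261 lost the call and 3 turned direction: miR-744-3p (unmodified share in LIN28A-OE DU145, -0.055), miR-23b-3p (abundance in DU145, -0.43, mutant 2) and miR-3200-3p (abundance in IGROV1, 0.54, mutant 2), the first with mutant 1 alone. The causes were not tested, apart from fewer miRNAs tested where the read minimum rose. The counts that follow are of members or listed genes only, most with no share over all tested miRNAs or genes beside them. They are given as checks and not read as results about the members. A minimum mean of 50 reads left 19 members lower in U share in LIN28A-OE DU145. An adjusted p under 0.05 gave 11 members for A share in DU145, 7 for mutant 2 against mutant 1 of IGROV1, 2 for the difference in A share change between IGROV1 and DU145, 2 for the difference in abundance change between both DU145 lines, 3 for the arm ratio in IGROV1 and 9 listed genes in DU145. A share among all reads gave 18 in DU145 and 16 in LIN28A-OE DU145, a measure that the loss of U raises through its denominator. For A share in IGROV1, 4 were called from the 12 libraries of that line, 3 in mutant 2 alone and 5 with the 8 mutant libraries as 1 group. Counting weights gave 5 for mutant 2 against mutant 1 of DU145 and 6 for that of IGROV1, and 2 reads added gave 5 for the latter. Totals of the tail tables gave 22 members for abundance in DU145, 18 in LIN28A-OE DU145 and 4 for the difference between both DU145 lines. Abundance in LIN28A-OE DU145, with the mismatched columns kept, gave 0 with mutant 1 alone, 11 with mutant 2 alone and 1 with no low-count filter. It gave 0 with the 8 mutant libraries as 1 group and 0 from that line's 12 libraries. Without the mismatched columns it gave 15, and their omission also gave 4 for the difference in abundance change and 4 for the arm ratio. For arm ratios, 1 was called in DU145 and 2 in IGROV1 from the 12 libraries of the line, and 1 in IGROV1 with 5 counts added. For listed genes, mutant 2 alone gave 9 in DU145, and the 8 mutant libraries as 1 group gave 3 in DU145, 5 in IGROV1 and 4 in LIN28A-OE DU145. Libraries of the same number deviated together, at a correlation over 0.1, in 3, 4 and 2 of 12 small RNA pairs of DU145, IGROV1 and LIN28A-OE DU145. In mRNA this was so in 7, 5 and 9 of 12 pairs. The median mRNA correlation was 0.136, 0.0489 and 0.270, against 0.00183, -0.0203 and -0.137 between libraries of other numbers. The main fits did not take them as pairs, and a replicate block served as an alternative. With a replicate block, 4 members were called for abundance in LIN28A-OE DU145 in place of 7, and no other count moved by more than 1.5 times. For A share in LIN28A-OE DU145 the block gave 4 in place of 6, without miR-3187-3p and miR-2116-3p, so 4 of the 5 members called in all 3 lines kept the call there. Leaving out 1 library at a time gave 5 to 8 members for A share in IGROV1, 0 to 2 for the difference in A share change between IGROV1 and DU145, 0 to 12 for abundance in LIN28A-OE DU145, 1 to 2 for the difference in abundance change between both DU145 lines, 0 to 3 and 0 to 1 for the arm ratio in LIN28A-OE DU145 and IGROV1, and 9 to 16 listed genes in IGROV1. The libraries behind these ranges are named beside the counts above. Chosen after seeing the data were the omission of the mismatched columns and of libraries with under 10 reads, and every alternative for the differences between lines.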
